A study of Rattus norvegicus with 8 samples.

Results

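A set of 8 genes of secreted proteases and protease inhibitors was examined in cultured rat hippocampal neurons: Htra1, Htra4 and Plat, which encode serine proteases, Serpinf1, Serpine2 and Serpini1, which encode serpins, and Timp2 and Timp3, which encode inhibitors of metalloproteinases. They were taken by gene symbol, 8 of the 28909 symbols in the table of read counts. Htra4 and Serpinf1 were chosen by their measured change, since they stood among the genes with the largest rise after picrotoxin (PTX) in these same libraries, so all their values are given as a description, with no test. The other 6 entered by symbol.

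Embryonic hippocampal neurons of Sprague-Dawley rats were grown on porous inserts, through which neurites but not cell bodies pass, and RNA of the upper side (somata) and of the lower side (processes) was sequenced after depletion of ribosomal RNA. PTX, an antagonist of GABA-A receptors that raises network activity, or ethanol vehicle (control) was given for 48 h from day 18 to day 20 in vitro. The 4 groups, somata control, somata PTX, processes control and processes PTX, had 2 libraries each. All are primary cultures, and the sources do not say whether the 2 libraries of a group came from separate preparations, so p-values measure the spread between these libraries only. With 2 libraries per group, values of a gene often do not overlap between groups even without a change. Overlap is therefore given as a description, and its share over all tested genes was not computed.

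Proteases released into the extracellular space cut matrix proteins, growth factor precursors and surface receptors. Tissue plasminogen activator, the product of Plat, turns plasminogen into plasmin and is released by active neurons. Serpins are mostly suicide substrates that trap serine proteases in a covalent complex: neuroserpin (Serpini1) and protease nexin 1 (Serpine2) both inhibit plasminogen activators, and protease nexin 1 also inhibits thrombin, whereas pigment epithelium-derived factor (Serpinf1) has the serpin fold but no inhibitory activity and acts as a neurotrophic and anti-angiogenic factor. The products of Htra1 and Htra4 belong to the HtrA family of serine proteases with a PDZ domain. Timp2 and Timp3 products block matrix metalloproteinases, and that of Timp3 is held in the extracellular matrix and also blocks enzymes of the ADAM and ADAMTS families.

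The sequences just before the start of 2 of these genes are shown because the PTX libraries were higher than the control libraries in one gene and lower in the other, on both sides of the filter, and the stretches hold few and many CG dinucleotides. They are the 250 bases upstream of the RefSeq start in rat assembly GRCr8, a later assembly than the Rnor_6.0 used for the counts, written 5′ to 3′ on the strand of the gene with each CG in capitals. Serpinf1 lies on the minus strand and the stretch is chr10:60760899-60761148, and Timp2 lies on the minus strand with chr10:104089215-104089464.
Serpinf1: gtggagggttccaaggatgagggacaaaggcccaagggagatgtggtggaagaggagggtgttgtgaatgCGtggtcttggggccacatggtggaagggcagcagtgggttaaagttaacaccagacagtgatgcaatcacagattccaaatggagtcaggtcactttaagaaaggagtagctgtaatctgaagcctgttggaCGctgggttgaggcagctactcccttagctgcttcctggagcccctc
Timp2: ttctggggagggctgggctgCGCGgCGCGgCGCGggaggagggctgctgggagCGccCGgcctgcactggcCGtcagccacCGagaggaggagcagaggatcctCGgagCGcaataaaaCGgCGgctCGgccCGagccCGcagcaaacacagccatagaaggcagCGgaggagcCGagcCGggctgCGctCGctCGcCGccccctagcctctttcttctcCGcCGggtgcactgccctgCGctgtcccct
The Serpinf1 stretch held 2 CG and 53.2% G and C, and the Timp2 stretch held 27 CG and 72.0%. Of 33469 promoters in the same table, with a median of 5 CG, 28.6% had no more CG than Serpinf1 and 93.2% no more than Timp2. An entry was matched for 6 of the 8 genes, and the other 4, Htra1, Serpine2, Serpini1 and Timp3, held 25, 30, 14 and 23 CG. Htra4 and Plat were not matched.

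The libraries held 12290890 to 14520831 counts in somata and 15120334 to 18455662 in processes. Mitochondrial ribosomal RNA took 64.9% to 68.3% of the counts in processes, which left a median tested gene with 96 to 110 reads per library there, against 268 to 319 in somata. Of the genes in the table, 14309 had more than 20 reads in at least 2 libraries and were tested, and all 8 genes were among them. Levels are CPM, the count of a gene scaled to a library of 1000000 counts, after TMM scaling, an adjustment of edgeR for libraries dominated by few genes, and changes are log2 fold changes with standard errors (SE) from edgeR's quasi-likelihood test, whose p-values were adjusted by Benjamini-Hochberg over all tested genes and called under 0.05. All 6 neuronal markers were tested, and their levels summed to 1740 to 1969 CPM in somata control and 5139 to 5432 CPM in processes control. Single neuronal markers went both ways between these groups, 2 called as higher in processes and 3 as lower, and Map2 had the most reads of the 6. The 7 astrocyte markers summed to 3894 to 4307 CPM and 13045 to 14572 CPM in the same groups, so the cultures labelled as neurons also held astrocyte RNA on both sides of the filter. None of the 6 microglial markers in the table reached the tested range, with 0.586 to 2.12 CPM in all. In these bulk samples, fewer cells of a type and less RNA per cell cannot be told apart.

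**Figure D1:**
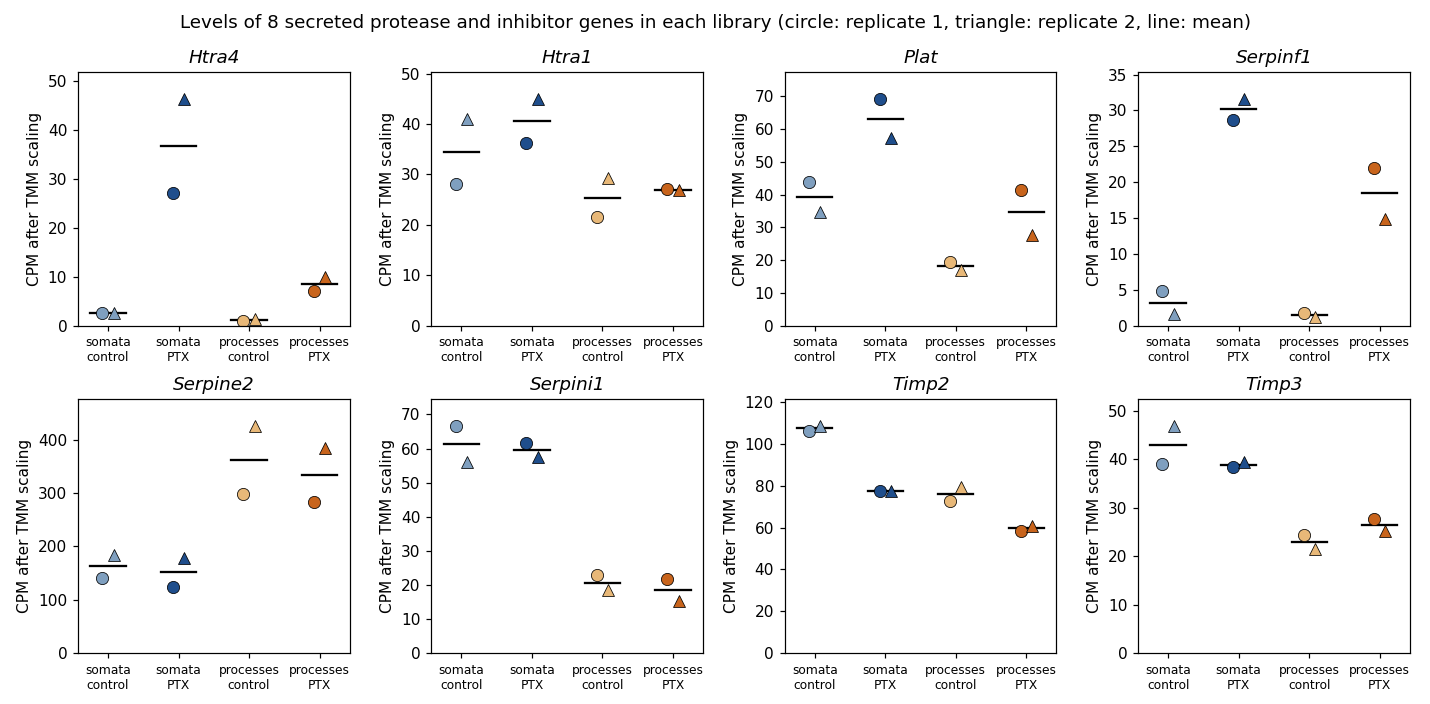
Level of each of the 8 genes (vertical axes, CPM after TMM scaling, from 0) in the 4 groups (horizontal axes), with a circle for replicate 1, a triangle for replicate 2 and a line for the mean. In Htra4 and Serpinf1 the PTX libraries lie far above the control libraries on both sides of the filter, Serpine2 is the gene that is higher in processes, and Serpini1 is lower in processes with and without PTX.

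Htra4 had few reads in control cultures, near the lower limit of counting in processes, and was counted far more often after PTX in each compartment. Somata control libraries had 63 and 66 reads (2.67 and 2.58 CPM) and somata PTX libraries 753 and 1095 reads (27.0 and 46.3 CPM). In processes there were 8 and 11 reads in control (0.891 and 1.29 CPM) and 62 and 100 after PTX (7.11 CPM in replicate 1, and 8.58 ± 2.07 CPM as mean ± SD of the 2). Every PTX library thus exceeded every control library of its compartment, and the 2 somata PTX libraries differed from each other by more than any other pair. The log2 fold change was 3.80 (SE 0.27) in somata, rank 5 of 14309 from the top, and 2.98 (SE 0.428) in processes, rank 16. By replicate number the ratio of PTX to control was 10.1 and 17.9 in somata and 7.98 and 7.78 in processes.

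Htra1, which encodes the best known secreted HtrA protease and degrades matrix proteoglycans, did not share this change. It was measured at 28.0 and 41.0 CPM in somata control and at 36.3 and 44.9 CPM in somata PTX. The processes had 21.6 and 29.2 CPM in control and 27.1 and 26.9 CPM after PTX, so the groups overlapped in both compartments. The log2 fold change with PTX was 0.23 in somata (95% confidence interval -0.18 to 0.64, adjusted p = 0.653, edgeR) and 0.09 in processes (-0.38 to 0.55, adjusted p = 0.893). With replicate 1 of somata control left out, the value in somata was -0.019, and without replicate 1 of processes control that in processes was -0.11.

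Plat rose with PTX in processes. Processes control libraries had 174 and 145 reads (19.4 and 17.0 CPM) and processes PTX libraries 362 and 276 reads (41.5 and 27.7 CPM), which do not overlap. In somata the level was 44.0 and 34.7 CPM in control and 69.1 and 57.1 CPM after PTX, also without overlap. Plat had a log2 fold change of 0.92 in processes (SE 0.209, adjusted p = 0.0379, edgeR), a 1.90-fold rise, and 0.68 in somata (SE 0.18, adjusted p = 0.0688), which missed the threshold. When the replicate number was added as a block, the adjusted p became 1.68e-05 in processes and 1.11e-05 in somata. Over 17 alternative fits the adjusted p lay between 4e-07 and 0.211 in processes, with 14 of the 17 under the threshold, and between 1.11e-05 and 0.444 in somata, with 8. The call in processes was lost without either processes control library (edgeR adjusted p = 0.17 without replicate 1 and 0.166 without replicate 2) and without replicate 1 of processes PTX (0.211). Plat overlaps Ikbkb in the RefSeq annotation, which had 133 to 345 reads per library, and whether the counting used strand is not given in the sources used here.

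Serpinf1 was counted far more often in PTX libraries than in control libraries on both sides of the filter. The somata control libraries had 115 and 41 reads (4.88 and 1.60 CPM), which are far apart for replicates, and the somata PTX libraries 800 and 747 reads (28.7 and 31.6 CPM). In processes the control libraries had 16 and 11 reads (1.78 and 1.29 CPM) and the PTX libraries 192 and 148 (22.0 and 14.9 CPM). No PTX library overlapped the control libraries of its compartment. Its log2 fold change was 3.23 in somata (SE 0.35), rank 15 of 14309, and 3.57 in processes (SE 0.488), rank 9. Because the somata control libraries differ, the somatic value was 2.61 without replicate 2 of somata control and 4.22 without replicate 1.

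Markers of fibroblast-like and of choroid plexus cells were present, and their sums were higher in replicate 1 of every group. The 6 fibroblast and leptomeningeal markers, all tested and none of them called with PTX, summed to 112 and 36.4 CPM in somata control and 123 and 61.1 CPM in somata PTX. In processes their sum was 63.7 and 32.1 CPM in control and 89.4 and 33.9 CPM after PTX. Markers of ependyma and choroid plexus, of which 4 of 5 were in the table and tested, summed to 50.5 and 8.14 CPM in somata control and 46.7 and 13.4 CPM in somata PTX, with 1.10 to 5.79 CPM in processes and no call with PTX. Thus replicate 1 of somata control was high in Serpinf1 and in both marker sums, while in somata PTX the 2 libraries had similar Serpinf1 levels and unlike marker sums. The part of these cells in the Serpinf1 values was not tested.

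**Figure D2:**
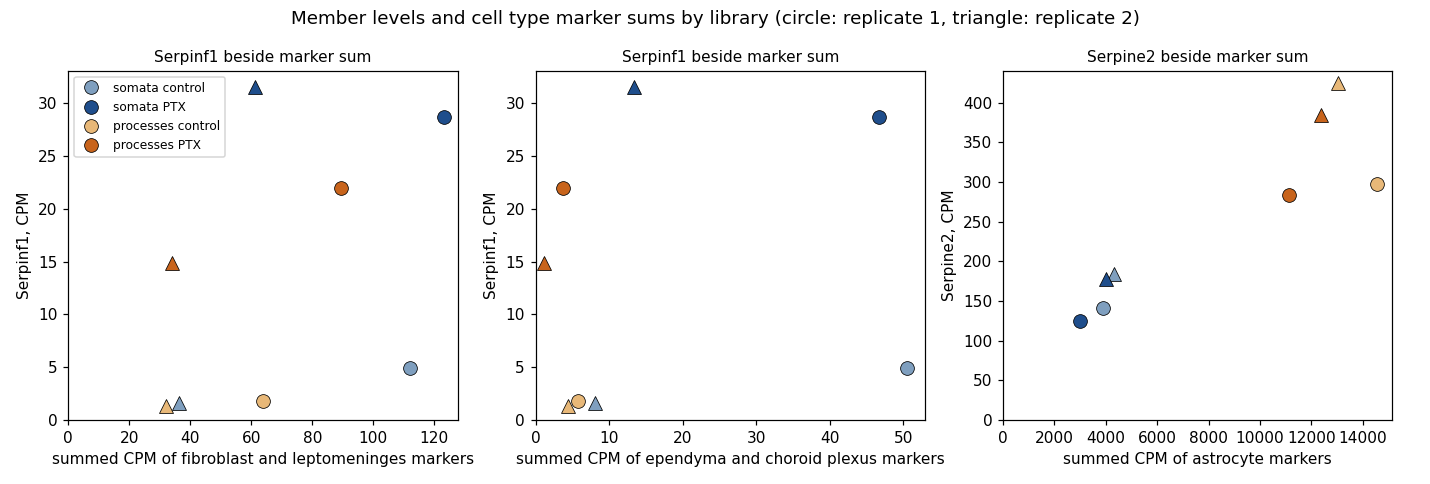
Level of Serpinf1 or Serpine2 (vertical axes, CPM) against the summed level of a cell type's markers (horizontal axes, CPM), 1 point per library with circles for replicate 1 and triangles for replicate 2. Serpinf1, which was chosen for its rise, is higher in the PTX libraries of each compartment. The sums of fibroblast and of choroid plexus markers are higher in replicate 1 of every group. The 4 process libraries lie high in Serpine2 and in the astrocyte sum, while single astrocyte markers went both ways in control cultures, 3 called as higher in processes and 2 as lower. The part of these cells in Serpinf1 and Serpine2 was not tested.

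Both serpins that inhibit plasminogen activators kept overlapping levels between control and PTX. Serpine2 was measured at 141 and 184 CPM in somata control and 124 and 178 CPM in somata PTX, and at 298 and 425 CPM in processes control and 284 and 385 CPM in processes PTX. In each of the 4 groups replicate 2 was the higher one. Its log2 fold change was -0.11 in somata (95% confidence interval -0.61 to 0.39) and -0.11 in processes (-0.61 to 0.39), with adjusted p-values of 0.902 and 0.864 (edgeR). Leaving out 1 library turned its sign in both compartments. Serpini1 was measured at 66.5 and 56.1 CPM in somata control, 61.7 and 57.4 CPM in somata PTX, 22.8 and 18.4 CPM in processes control and 21.7 and 15.3 CPM in processes PTX. Its log2 fold change was -0.04 in somata (-0.38 to 0.30, adjusted p = 0.948) and -0.17 in processes (-0.58 to 0.24, adjusted p = 0.721), and its sign too turned in both compartments when 1 library was left out, and in somata when scaled by library size only.

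Timp2 fell with PTX in somata. Its level was 106 and 109 CPM in somata control and 77.3 and 77.7 CPM in somata PTX. In processes it was 72.6 and 79.3 CPM in control and 58.4 and 60.8 CPM after PTX, again with no overlap. Timp2 had a log2 fold change of -0.47 in somata (SE 0.0983, adjusted p = 0.0253, edgeR) and -0.35 in processes (SE 0.104, adjusted p = 0.104), where the adjusted p was 0.0184 with the replicate block. Over 17 alternative fits the adjusted p lay between 0.000364 and 0.184 in somata and between 0.0184 and 0.376 in processes. The somatic value itself stayed between -0.49 and -0.47 when a somata library was left out, but the call was then lost each time, with adjusted p-values of 0.124 and 0.168 without replicate 1 and 2 of somata control and of 0.184 and 0.141 without replicate 1 and 2 of somata PTX. It was also lost when scaled by library size only (0.178). Timp2 overlaps Cep295nl, which had 1 to 24 reads per library.

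Timp3 differed in sign between the compartments, and neither value passed. It was measured at 39.0 and 46.8 CPM in somata control, 38.3 and 39.4 CPM in somata PTX, 24.3 and 21.5 CPM in processes control and 27.7 and 25.1 CPM in processes PTX. The groups overlapped in somata and did not overlap in processes, which carries little weight with 2 libraries per group. The log2 fold change with PTX was -0.14 in somata (95% confidence interval -0.41 to 0.13, adjusted p = 0.677, edgeR) and 0.21 in processes (-0.10 to 0.51, adjusted p = 0.515). Timp3 overlaps Syn3, which had 34 to 143 reads per library.

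**Figure D3:**
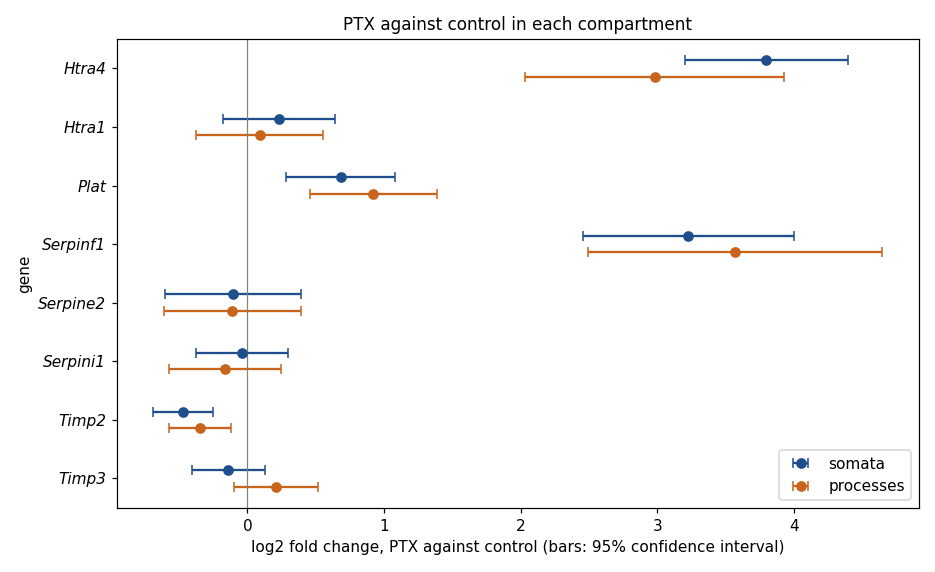
Log2 fold change of PTX against control (horizontal axis) for the 8 genes (vertical axis) in somata and in processes, with bars for the 95% confidence interval of the fit. Htra4 and Serpinf1, which were chosen for their rise, lie between 2.98 and 3.80, Plat lies above 0 and Timp2 below 0 in both compartments, and the intervals of the other 4 genes include 0.

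Of the 6 genes that entered by symbol, 1 fell and 0 rose with PTX in somata, and 1 rose and 0 fell in processes. Among all tested genes 3.59% were called in somata, 2.09% as higher and 1.5% as lower, and 3.74% in processes, 1.64% as higher and 2.1% as lower. With the replicate block 2 of the 6 were called in each compartment, Plat as higher and Timp2 as lower. That fit called more genes in general, 2001 of the 14309 tested genes in somata and 1601 in processes, against 513 and 535 without the block. The median log2 fold change of the 6 was -0.07 in somata and -0.01 in processes, beside -0.01 and -0.01 over all tested genes.

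Whether the PTX effect differed between the compartments was tested by the interaction, the log2 fold change in processes minus that in somata. It called 0 of the 6 genes, with 0 at an unadjusted p under 0.05, and the likelihood ratio test and DESeq2 also called 0. The share called among all tested genes was 0%. The interval of the difference was -0.37 to 0.85 for Plat, -0.19 to 0.44 for Timp2 and -0.06 to 0.75 for Timp3. For Htra4 the difference was -0.82 (SE 0.589) and for Serpinf1 0.34 (SE 0.656), and the latter was -0.65 without replicate 1 of somata control.

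The compartments were first compared in control cultures. Serpini1 was the most somatic of the 6 genes that entered by symbol, with 1567 and 1434 reads in somata and 205 and 157 in processes and a difference of processes minus somata of -1.57 on the log2 scale (SE 0.17, adjusted p = 3.36e-05, edgeR). Plat followed with -1.11 (SE 0.201, adjusted p = 0.00114), Timp3 with -0.91 (SE 0.131, adjusted p = 0.000256) and Timp2 with -0.50 (SE 0.101, adjusted p = 0.00212, edgeR). Serpine2 was the 1 of the 8 genes higher in processes, by 1.15 on the log2 scale (SE 0.229, adjusted p = 0.00201), a 2.22-fold difference.

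Htra1 differed less clearly, by -0.45 on the log2 scale (SE 0.2, adjusted p = 0.0899, edgeR), and its libraries overlapped between the compartments. It passed with the replicate block (adjusted p = 0.00336) and without replicate 1 of somata control (0.0192), and over 17 alternative fits the adjusted p lay between 1.76e-06 and 0.585. The control libraries also took part in the PTX rise that chose Htra4 and Serpinf1, so these have values only. Htra4 was at -1.27 (SE 0.469), which rests on 8 and 11 reads in processes, and its process libraries lay below its somata libraries. Serpinf1 was at -1.05 (SE 0.56) with overlapping libraries, and at -1.66 without replicate 2 and -0.055 without replicate 1 of somata control.

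In all, 5 of the 6 genes that entered by symbol were called in control cultures, 1 as higher in processes and 4 as lower, where 47.7% of all tested genes were called, 25.8% as higher and 21.9% as lower. The median of the 6 was -0.70 and that of all tested genes -0.05. These values depend on the scaling, because the libraries carry no measure of total RNA. Scaled by library size only, the median tested gene moved to -1.86 and Serpine2 was negative, at -0.64, which is 1.22 above that median. Relative to the median tested gene, Serpine2 was between 1.20 and 1.22 under the 4 scalings, and Serpini1 between -1.53 and -1.52. A change of scaling moves all genes by nearly the same amount, so this agreement follows from the calculation and is no test.

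Beside Serpine2, a product of astrocytes as well as neurons, the 7 astrocyte markers went both ways in control cultures, with 3 called as higher in processes and 2 as lower. Gfap, the intermediate filament of astrocytes, had a log2 fold change of 2.60 (adjusted p = 3.15e-06, edgeR) and Slc1a3, a glutamate transporter, -0.56 (adjusted p = 0.0143). The part of astrocyte RNA in the Serpine2 difference was not tested.

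**Figure D4:**
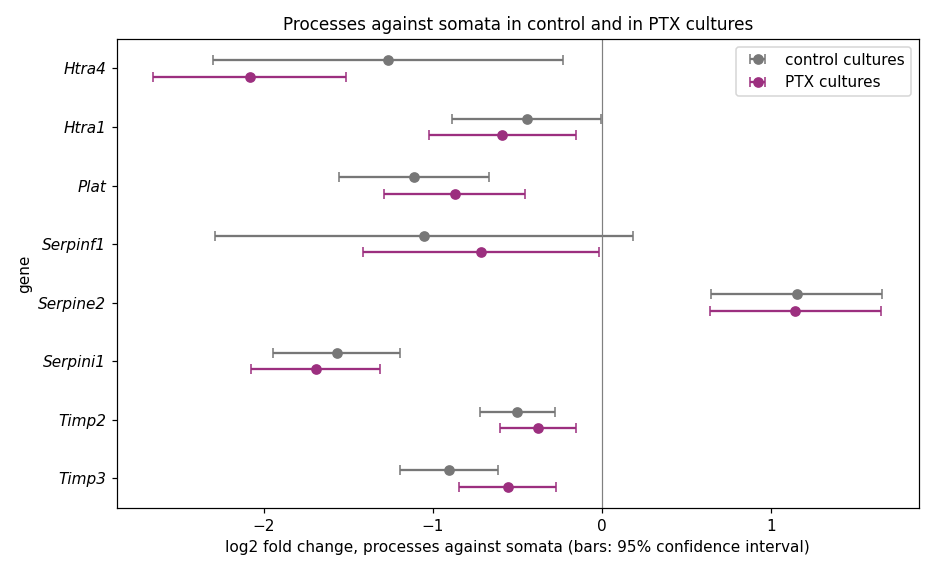
Log2 fold change of processes against somata (horizontal axis) for the 8 genes (vertical axis) in control and in PTX cultures, with bars for the 95% confidence interval of the fit. Serpine2 is at 1.15 in both kinds of culture and the other 7 genes are below 0, with Serpini1 at -1.57 and -1.70.

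In PTX cultures Serpini1 and Plat were again the most somatic of the 6 genes that entered by symbol, and Serpine2 again the 1 that was higher in processes. Serpini1 differed by -1.70 on the log2 scale (SE 0.172, adjusted p = 1.94e-05, edgeR), Plat -0.87 (SE 0.189, adjusted p = 0.0031) and Serpine2 1.15 (SE 0.229, adjusted p = 0.00193). Htra1 (-0.59, adjusted p = 0.0291), Timp3 (-0.56, adjusted p = 0.00454) and Timp2 (-0.38, adjusted p = 0.0101) were lower in processes, with Htra1 no longer the smallest difference. All 6 were called, 1 as higher and 5 as lower, where 49.8% of all tested genes were called, 25.7% as higher and 24% as lower. The call of Htra1 was lost without replicate 2 of somata PTX (adjusted p = 0.157) and without replicate 1 or 2 of processes PTX (0.0939 and 0.109), and that of Timp2 without replicate 1 or 2 of somata PTX (0.0589 and 0.0546) and without replicate 1 of processes PTX (0.053). For Htra4 the value in PTX cultures was -2.08 (SE 0.258) and for Serpinf1 -0.71 (SE 0.317), and in both the process libraries lay below the somata libraries.

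The genes with the most similar profile were ranked by Pearson's r of log2 CPM over the 8 libraries, among 10198 other genes whose mean reached 5 CPM, as a description. The points share libraries and the compartment difference, so high values are common. Nearest to Htra4 were Nptx2 (r = 0.98), which encodes a pentraxin that gathers AMPA receptors, Tll1 (0.978), which encodes a secreted metalloprotease of the tolloid family, and Spry4 (0.971), an inhibitor of receptor tyrosine kinase signalling. Serpinf1 was nearest to Cds1 (0.984), Rnf144b (0.983) and AABR07051069.1 (0.981). Plat was nearest to Atp2a2 (0.996), the calcium pump of the endoplasmic reticulum, Pkm (0.989) and Pcsk5 (0.987), a proprotein convertase of the secretory pathway. The genes nearest to Serpine2 were Nek3, Npc2 and Sdf4 (0.993 to 0.994), those nearest to Serpini1 were Cd200, Gjd2 and Alg2 (0.993 to 0.997), and those nearest to Timp3 were Cnot10, Tcn2 and Cers2 (0.988 to 0.994). For Timp2 they were Rnpep, Cacna1c and Cdh11 (0.981 to 0.985), and for Htra1 Rasa3, Naa16 and Rbm42 (0.974 to 0.977). Between the 8 genes themselves, Htra4 and Serpinf1 had r = 0.922 and Serpine2 and Serpini1 r = -0.96. Htra4 and Serpinf1 were both chosen for their PTX rise in these libraries, so their r follows in part from that choice. The same holds for their likeness to other genes that rise with PTX.

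Other genes of extracellular proteolysis, or of the same gene families, were taken from 7 lists with 103 genes, of which 54 were tested. The HtrA and serpin lists were taken by family and not by where the product acts. With PTX in somata 3 rose and 1 fell, beside 3.59% of all tested genes called, 2.09% as higher and 1.5% as lower. In processes 0 were called, with 12 at an unadjusted p under 0.05, beside 3.74% of all tested genes. Serpinb2, Mmp9 and Mmp3 exceeded 20 reads only in the somata PTX libraries and so were tested only through the group where they are high. The first 2 of them are among the 3 that rose, so this count does not bear on the lists. The likelihood ratio test called 7 in somata and 6 in processes, DESeq2 4 and 2, and the fit with the replicate block 16 and 8. Over all 14309 tested genes the likelihood ratio test called 972 and 949, DESeq2 503 and 640, and the fit with the block 2001 and 1601.

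The called genes came from different parts of the system. Serpinb2, which encodes plasminogen activator inhibitor 2, had 9 and 4 reads in somata control and 123 and 81 in somata PTX, a log2 fold change of 3.85 (SE 0.416). Mmp9, a gelatinase known for its regulation by neuronal activity, had 4 and 2 reads in somata control and 40 and 33 after PTX, a log2 fold change of 3.46 (SE 0.515). Both genes were tested only through the somata PTX libraries, so the distance between these groups is given as a description. Their control values are near the lower limit of counting. In processes Serpinb2 had 0 and 1 reads in control and 6 and 6 after PTX, and Mmp9 had 1 and 0 reads and 6 and 10. Masp1, a protease of the lectin pathway of complement, rose from 23.0 and 19.1 CPM to 40.5 and 29.6 CPM in somata (log2 fold change 0.74, SE 0.171, adjusted p = 0.0397, edgeR). Adamts3, a procollagen N-propeptidase that also cuts reelin, fell from 9.21 and 8.10 CPM to 3.12 and 2.71 CPM there (log2 fold change -1.56, adjusted p = 0.00169).

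**Figure D5:**
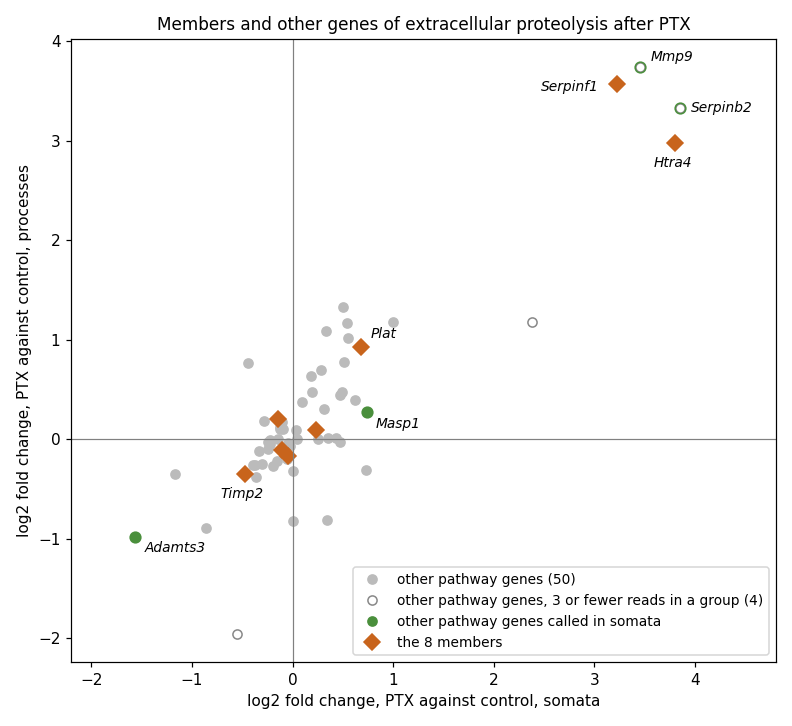
Log2 fold change of PTX against control in somata (horizontal axis) and in processes (vertical axis), 1 point per gene. Shown are the 8 genes and 54 other genes of extracellular proteolysis or of the same gene families. Htra4, Serpinf1, Serpinb2 and Mmp9 stand apart at the upper right. Htra4 and Serpinf1 were chosen for their rise, and Serpinb2 and Mmp9 were tested only through the somata PTX libraries. Open circles mark the 4 genes (Serpinb2, Mmp9, Mmp3 and Serpind1) with 3 or fewer reads in the 2 libraries of a group. Their fitted value depends on the small constant added to the counts.

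By list, the 2 other HtrA genes, Htra2 and Htra3, were both tested and neither was called with PTX. In the plasminogen activation list 7 of 11 genes were tested and 1 rose in somata, Serpinb2, which is also the 1 of 9 tested genes called among 37 other serpins. Of the 23 metalloproteinase genes 12 were tested and 1 rose, Mmp9, and of the 4 other metalloproteinase inhibitors all were tested and 0 were called. Serpinb2 and Mmp9 were tested only through the somata PTX libraries, so the counts that rest on them do not bear on their lists. Among 19 Adamts genes 17 were tested and 1 fell, Adamts3, and among 10 other secreted serine proteases 5 were tested and 1 rose, Masp1. Between compartments of control cultures 4 of the 54 genes were called as higher in processes and 9 as lower, beside 25.8% and 21.9% of all tested genes. In PTX cultures the counts were 9 and 9, beside 25.7% and 24%. Serpinb2 and Mmp3, tested only through the somata PTX libraries, are among the 9 called as lower there, so that count does not bear on the lists. Among the called genes of control cultures the most process-enriched were Serpina11, with 2.19 (SE 0.351, adjusted p = 0.000503, edgeR), and Mmp24, a membrane-bound metalloproteinase of neurons, with 1.20 (SE 0.165, adjusted p = 0.000184). The most somatic among those called were Adamts2, with -1.61 (SE 0.583, adjusted p = 0.0417), and Adamts15, with -1.53 (SE 0.461, adjusted p = 0.019). Few reads limit 3 of these genes. In processes control Adamts2 had 6 and 6 reads and Adamts15 8 and 5, and in somata control Serpina11 had 13 and 17.

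Other cell type markers also moved with PTX. In somata 2 of the 5 inhibitory neuron markers tested, Gad1 and Gad2, were called as higher, and 2 of the 5 excitatory markers, Camk2a and Neurod6, as lower. Not called there were Slc32a1 (log2 fold change -0.02), Sst (0.31) and Vip (1.18), and the excitatory Slc17a6 (0.50), Slc17a7 (-0.33) and Grin2b (-0.40). Gja1, of 7 astrocyte markers, and Rbfox3, of 6 neuronal markers, were called as lower, and Kdr, the 1 endothelial marker tested, as higher. In processes Gad2, of the 5 inhibitory markers tested, and the excitatory marker Slc17a7 were called as higher, and Camk2a and Neurod6 as lower. The endothelial markers summed to 3.25 to 4.92 CPM in somata control and 8.46 to 9.41 CPM in somata PTX, of 5 in the table, with Cldn5 at 0 in every library. Kdr had a mean of 134.5 reads in somata, and no other endothelial marker had more than 11.5. The sum of the 6 inhibitory neuron markers was 238 to 338 CPM in somata control and 414 to 542 CPM in somata PTX, and 134 to 173 CPM and 218 to 285 CPM in processes. Gad2 and Gad1 had the most reads of these 6 in both compartments. The part of any of these cell types in the values of Htra4, Serpinf1, Plat and Timp2 was not tested.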

How the data were processed

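The submitters deposited 1 table of whole-number read counts per gene symbol for the 8 libraries, which the authors made from trimmed reads with featureCounts and an Ensembl annotation of Rnor_6.0. The submitters' processing notes name STAR as aligner and the study's methods Subread, so the aligner is uncertain. The authors' 2 tables of fold changes, likelihood ratios, p-values and false discovery rates were not used. The 8 genes, the gene lists and the tests were chosen with earlier results of these data known. The 14309 of 28909 genes that exceeded 20 reads in 2 or more libraries were fitted with edgeR 4.0.16 in R 4.3.3 (quasi-likelihood, TMM, 1 coefficient for each of 4 conditions, all 8 libraries), and p-values were adjusted over all of them. Depth was 12290890 to 18455662 counts per library, and few reads limit Htra4 and Serpinf1 in control cultures most. Each value was recomputed with the likelihood ratio test, with DESeq2 1.42.0, with other scalings and filters, on the compared libraries only, with a replicate block and without each library. The block was used because the difference between replicate 2 and replicate 1 correlated across genes for each of the 6 pairs of conditions (r from 0.274 to 0.54), while the labels do not say what the numbers mark. Named were the 8 genes, the 3 genes most like each, list genes called with PTX and the 2 most extreme list genes called in each direction between compartments of control cultures. The scripts were tested on simulated data.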

Additional observations from a re-analysis of the deposited data

How the results depend on the processing

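The count of the 6 genes called with PTX in somata was 1, and it was 2 with the likelihood ratio test, with DESeq2, with no filter, with only the libraries compared and with the replicate block, and 0 to 2 when 1 library was left out. In processes it was 1, 2 with the replicate block, and 0 to 1 when 1 library was left out. The block added the calls of Plat in somata, Timp2 in processes, and Htra1 between compartments of control cultures, and changed no other call of the 6 genes that entered by symbol. Scaled by library size only, Serpini1 had a log2 fold change of 0.026 with PTX in somata, and Serpine2 had -0.64 in control and -0.67 in PTX cultures for processes against somata. The interaction of Serpine2 was 0.00199 with DESeq2, 0.016 with upper quartile scaling and 0.0081 with the replicate block. With 1 library left out, the PTX value in somata spanned -0.019 to 0.52 for Htra1, -0.40 to 0.13 for Serpine2 and -0.17 to 0.083 for Serpini1. In processes it spanned -0.11 to 0.32 for Htra1, -0.35 to 0.17 for Serpine2 and -0.44 to 0.070 for Serpini1. The interaction spanned -0.43 to 0.11 for Htra1, -0.65 to 0.96 for Serpinf1, -0.24 to 0.29 for Serpine2, -0.39 to 0.11 for Serpini1 and -0.077 to 0.51 for Plat. The cause of these changes was not tested. Of 634 values under alternatives (without Htra4 and Serpinf1 between compartments of control cultures), 567 stayed the same, 14 lost their call, 15 gained one and 27 changed sign. A further 11, which had no test, moved by more than the SE of the main fit. The same means that direction and side of the threshold were kept. For values without a test it means that the direction was kept and the move was within that SE. The count over all genes ranged from 117 to 2001 in somata (513 in the report), from 97 to 1601 in processes (535), from 5008 to 13461 between compartments in control (6823), from 5225 to 13496 in PTX cultures (7121) and from 0 to 15 for the interaction. Htra4 had no value where 10 reads in every library were required, and the interaction none with only the libraries compared. With 2 libraries per group, leaving out 1 assumes that the lone library varies like the other groups.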
